A study of Mus musculus with 6 samples.

Results

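The genes of cholesterol and fatty acid synthesis were followed in mouse Th17 cells that carried ADAR2, an enzyme that edits adenosine into inosine within double-stranded RNA. The set of 31 genes was given by name, 22 in a sterol arm and 9 in a fatty acid arm, out of 55450 genes in the tables. It does not hold every enzyme of either pathway. All 31 were found by symbol, and all 31 passed the filter on low counts, as did 14958 genes in all. The lowest value of any member in any library was 270 normalized counts, for Pmvk, so no member passed through a single group alone.

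Naive CD4+ T cells of wildtype mice aged 8 to 12 weeks were activated through CD3 and CD28 with TGF-beta at 0.1 ng/mL, later 0.3 ng/mL, and IL-6 at 20 ng/mL. They were transduced at 24 h with MSCV, a murine stem cell virus retrovirus, and collected at 72 h. The control group received the empty MSCV vector. The other groups received MSCV with ADAR2_WT, the active enzyme, or with ADAR2_E396A, an enzymatically dead form. Each group had 2 libraries, 1 from each of 2 mice, here called donors A and B. For the promoter behind each insert and the share of transduced cells, the labels give nothing. All groups were exposed to retrovirus and the same cytokines, so no group shows untransduced cells. The labels do not say whether a donor's cultures were split before or after activation, so the spread behind each p-value is that between these 6 cultures. RNA editing was not measured, only transcript abundance.

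Cells make cholesterol from acetyl-CoA through mevalonate, isoprenoid units, squalene and lanosterol, and fatty acids from acetyl-CoA through malonyl-CoA. Both pathways are switched on by the transcription factors SREBP2 (Srebf2) and SREBP1 (Srebf1), which SCAP carries from the endoplasmic reticulum to the Golgi when sterols are scarce and which INSIG proteins hold back when sterols are abundant. Dividing T cells raise both pathways after activation. Sterol intermediates can bind RORgammat, the lineage factor of Th17 cells, and acetyl-CoA carboxylase is known to be needed for Th17 differentiation.

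Adarb1, the gene of ADAR2, was at 3672 and 3333 normalized counts with empty vector, 18422 and 18999 in the ADAR2 WT libraries and 15644 and 14920 in those of ADAR2 E396A, each above its own donor's control. Reads of insert and endogenous gene were not separated. Reads assigned to genes ran from 16496328 to 21897166 per library. The 31 genes together took 0.537% to 0.547% of reads in 5 libraries and 0.593% in donor B's ADAR2 E396A library. The T cell genes Cd3e, Cd3d and Cd4 summed to between 17972 and 24266 normalized counts. Markers of myeloid cells (Lyz2, Csf1r, Itgam) summed to between 1 and 8, and of CD8 and NK cells (Cd8a, Cd8b1, Ncr1) to between 148 and 177. Il17a, the signature Th17 cytokine gene, differed by donor: it ran from 2437 to 6602 in donor A and from 9279 to 18145 in donor B. Within each donor it was also higher with ADAR2 WT than with empty vector, at 6602 against 2437 and 17878 against 9279. That difference did not pass the threshold used below (limma adjusted p = 0.0803). With ADAR2 E396A Il17a was at 2616 and 18145. In bulk RNA, fewer cells of a type and less RNA per cell cannot be told apart.

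Promoter windows from RefSeq (GRCm38.p6, 250 bases before to 50 after a transcript start) were found for 24 of the 31 genes and for 27025 genes in all. Where a gene had several windows, the first listed was used. The motif TCACNCCAC, the core of the sterol regulatory element bound by SREBPs, was searched on both strands and was present in Hmgcs1 alone among the 24, against 1.22% of all windows. The CCAAT box, bound by NF-Y, which cooperates with SREBPs at many sterol genes, was present on either strand in 18 of 24, or 75.0%, against 37.92% of all windows. By arm it was in 15 of 18 sterol and 3 of 6 fatty acid windows. The GC box GGGCGG was in 18 of 24 against 35.91%, and the E-box CACGTG in 4 of 24 against 7.24%. No entry was found for Fdps, Fdft1, Sqle, Stard4, Scd1, Scd2 and Fads1. The shares of all windows include genes that did not pass the filter on low counts, whereas all members passed it. No share among expressed genes was taken, so an excess cannot be assigned to these pathways. These counts describe letters in a window and no binding was measured. Shown are the 150 bases before the start for Hmgcs1, as the holder of the sterol motif, for Mvk, which had the largest difference with ADAR2 WT among genes with a window, and for Hsd17b7, whose level varied most between libraries. Capitals mark TCACNCCAC and the CCAAT box, which reads ATTGG on the other strand; these motifs overlap nowhere in the stretches shown.
Hmgcs1 (chr13:119690201-119690350, plus strand): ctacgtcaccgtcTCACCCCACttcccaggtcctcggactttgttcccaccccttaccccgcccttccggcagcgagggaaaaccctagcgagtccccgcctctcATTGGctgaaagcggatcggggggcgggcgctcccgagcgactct
Mvk (chr5:114444119-114444268, plus strand): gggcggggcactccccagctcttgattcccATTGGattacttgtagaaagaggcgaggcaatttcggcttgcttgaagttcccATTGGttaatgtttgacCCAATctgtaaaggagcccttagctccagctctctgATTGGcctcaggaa
Hsd17b7 (chr1:169969206-169969355, minus strand): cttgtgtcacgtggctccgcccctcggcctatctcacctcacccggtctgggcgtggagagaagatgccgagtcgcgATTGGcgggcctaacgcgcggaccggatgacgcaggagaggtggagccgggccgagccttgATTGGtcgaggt

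Levels of different genes were compared as mean normalized counts per kb of annotated exon over the 6 libraries. The fatty acid arm held the highest. Scd2, a stearoyl-CoA desaturase that makes monounsaturated fatty acids, was at 6902 per kb, the 99.5th percentile of tested genes. Acly, which makes cytosolic acetyl-CoA from citrate and so feeds both arms, was at 1647 per kb, and Scd1, the paralog of Scd2, at 1201. Scd2 exceeded Scd1 per kb by 4.89-fold to 6.59-fold in every library. How reads shared by these paralogs were counted is not given in the sources used here. Fasn, the fatty acid synthase, was at 678 per kb, Srebf1 at 457, Fads2 at 362, Elovl6 at 273, Acaca, acetyl-CoA carboxylase, at 137 and Fads1 at 99.7. Fads1 and Fads2 encode desaturases of polyunsaturated fatty acids and Elovl6 an elongase.

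In the sterol arm the regulator Srebf2 led with 1069 per kb. Hmgcs1, the synthase that makes HMG-CoA, followed with 1007, then Cyp51, the lanosterol demethylase, with 761 and Fdft1, the squalene synthase, with 730. Insig1 was at 567 per kb and Stard4, a sterol carrier, at 580. Sqle, squalene monooxygenase, was at 418 per kb. The lowest were Dhcr7, which makes cholesterol from its immediate precursor, at 65.4 per kb, and Fdps, the farnesyl diphosphate synthase, at 85.0. The value of Fdps is uncertain, because 1124 of its 4208 exon bases are also annotated to Gm43738, a gene on the same strand. Exons of Hmgcs1, Fdft1, Idi1, Lss, Cyp51, Ggps1, Scap, Srebf1 and Elovl6 overlap a gene on the opposite strand, and the strand setting of the counting is not given. Across the 6 libraries the coefficient of variation had a median of 8.98% in the sterol and 5.63% in the fatty acid arm, against 7.6% for 7475 genes at or above the lowest member mean.

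**Figure D1:**
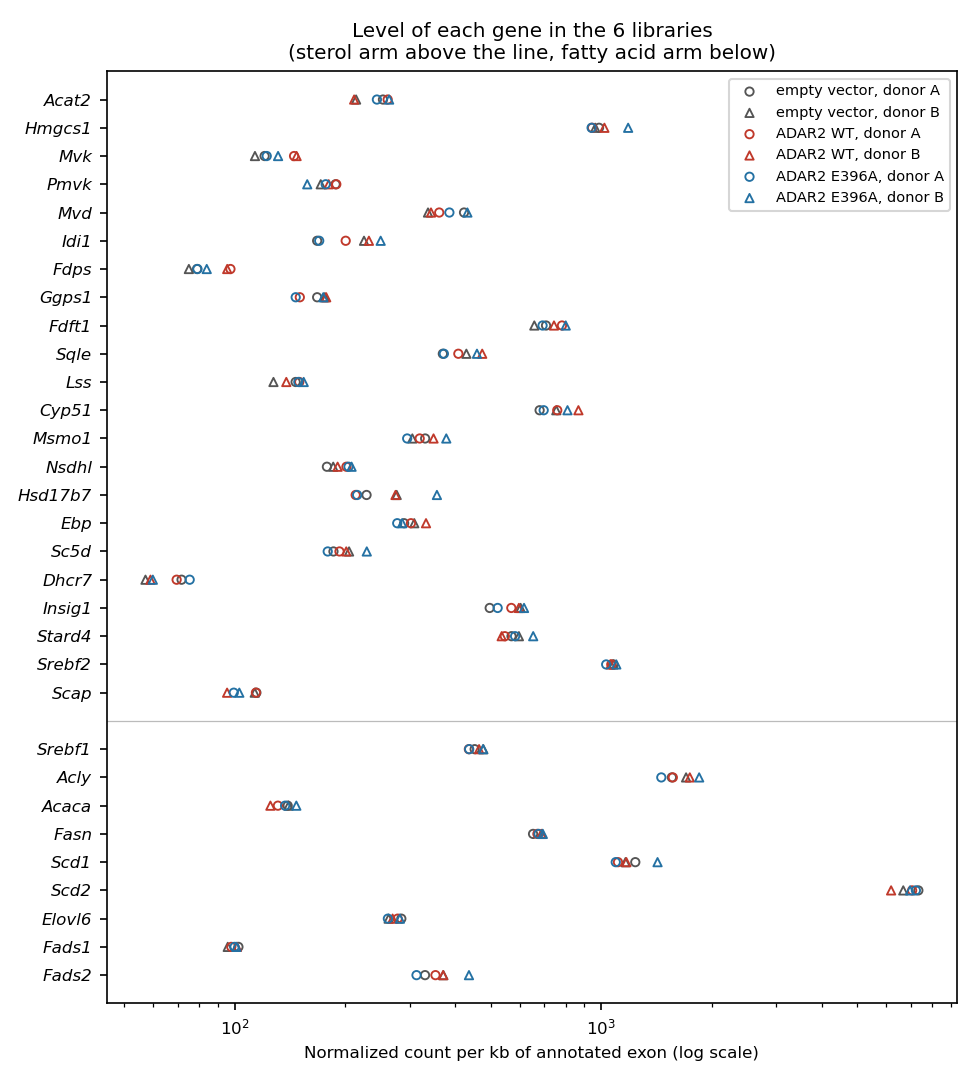
Normalized count per kb of exon (x axis, log scale) of each gene (y axis) in the 6 libraries, circles for donor A and triangles for donor B, colored by group. The genes span from Dhcr7 at 65.4 to Scd2 at 6902 per kb, while the 6 libraries of a gene lie close together.

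The first comparison asked whether active ADAR2 changed these genes against the empty vector. In neither arm did a gene pass. By limma, with Benjamini-Hochberg adjustment and a threshold of 0.05, 0 of 22 sterol and 0 of 9 fatty acid genes passed, where 0.816% of all tested genes did. An unadjusted p under 0.05 was reached by 3 sterol genes and 0 fatty acid genes, where 14.1% of all genes reached it. The edgeR and DESeq2 tests on recovered reads also called 0 in each arm. In the authors' deposited table the lowest adjusted p of a member was 0.753, for Cyp51. Differences are given as log2 of the first group over the second, with a pseudocount of 1. Their 95% intervals, not adjusted for the number of genes, lay inside 1.5-fold in either direction for all 31. That held for 93% of the 7475 tested genes at or above the lowest member mean and for 58.5% of all tested genes. The number was 27 without the donor term.

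The largest sterol differences with ADAR2 WT were those of Mvk and Fdps. Mvk (ENSMUSG00000041939.14, chromosome 5, 114444269 to 114460591, mm10), the mevalonate kinase, was at 323 and 304 normalized counts with empty vector in donors A and B, and at 388 and 395 with ADAR2 WT. Both ADAR2 WT libraries were above both controls. Its log2 difference was 0.32 (SE 0.11, 95% interval 0.07 to 0.57, limma adjusted p = 0.245). Fdps (ENSMUSG00000059743.12, chromosome 3, 89093588 to 89101959) was at 332 and 316 with empty vector and at 410 and 401 with ADAR2 WT, again without overlap. The log2 difference of Fdps was 0.32 (SE 0.11, interval 0.08 to 0.57, limma adjusted p = 0.232). Cyp51 (ENSMUSG00000001467.5, chromosome 5, 4081145 to 4104746) was at 2998 and 3330 with empty vector and at 3350 and 3826 with ADAR2 WT. The ranges of Cyp51 nearly touched, and its log2 difference was 0.18 (SE 0.06, interval 0.04 to 0.32, limma adjusted p = 0.263).

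The other enzymes of the sterol arm had smaller differences with ADAR2 WT. Fdft1, at 2989 and 2776 with empty vector and 3303 and 3142 with ADAR2 WT, had 0.16 on the log2 scale, and Nsdhl, a sterol dehydrogenase that acts after Cyp51, had 0.11. With Mvk, Fdps and Cyp51 these made 5 of 22 sterol genes whose ADAR2 WT libraries were both above the controls, where 18.7% of all genes were. Stard4 and Srebf2 were the 2 of 22 with both below, where 18.5% were. Hmgcs1 had a log2 difference of 0.01 (interval -0.19 to 0.21), Sqle of 0.14 (-0.01 to 0.30) and Dhcr7 of 0.00. The arm's median was 0.06, against 0.00 for all tested genes, with 16 of 22 above 0, against 49.6% of all genes.

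Among the regulators, Srebf2 had the narrowest spread of the 31 genes, a coefficient of variation of 2.13%. It was at 7753 and 7753 normalized counts with empty vector, 7653 and 7626 in the ADAR2 WT libraries, and 7411 and 7898 in those of ADAR2 E396A. These 6 values span 1.07-fold. The log2 difference of Srebf2 with ADAR2 WT was -0.02 (interval -0.16 to 0.12, limma adjusted p = 0.91). Scap had -0.13 (interval -0.35 to 0.10), and Insig1, a target of the SREBPs as well as their brake, had 0.09 (-0.09 to 0.27).

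In the fatty acid arm 5 of 9 genes were above 0 with ADAR2 WT, and the median was 0.00. Acaca (ENSMUSG00000020532.18, chromosome 11, 84129672 to 84401651) had the largest difference. It was at 2382 and 2395 normalized counts with empty vector and at 2240 and 2137 with ADAR2 WT, the 1 gene of the arm whose groups did not overlap. Its log2 difference was -0.13 (SE 0.07, interval -0.29 to 0.04, limma adjusted p = 0.465). Scd2 was at 40066 and 36444 with empty vector and 38527 and 33762 with ADAR2 WT, a log2 difference of -0.08 (interval -0.23 to 0.07). Scd1, at 6060 and 5698 against 5435 and 5729, had -0.07 (interval -0.31 to 0.16). Fasn, at 7134 and 7555 against 7332 and 7512, had 0.02 (interval -0.12 to 0.15), and Acly 0.02 (-0.14 to 0.18). Srebf1 was at 2544 and 2686 with empty vector and 2453 and 2616 with ADAR2 WT, with a log2 difference of -0.05 (interval -0.19 to 0.10).

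**Figure D2:**
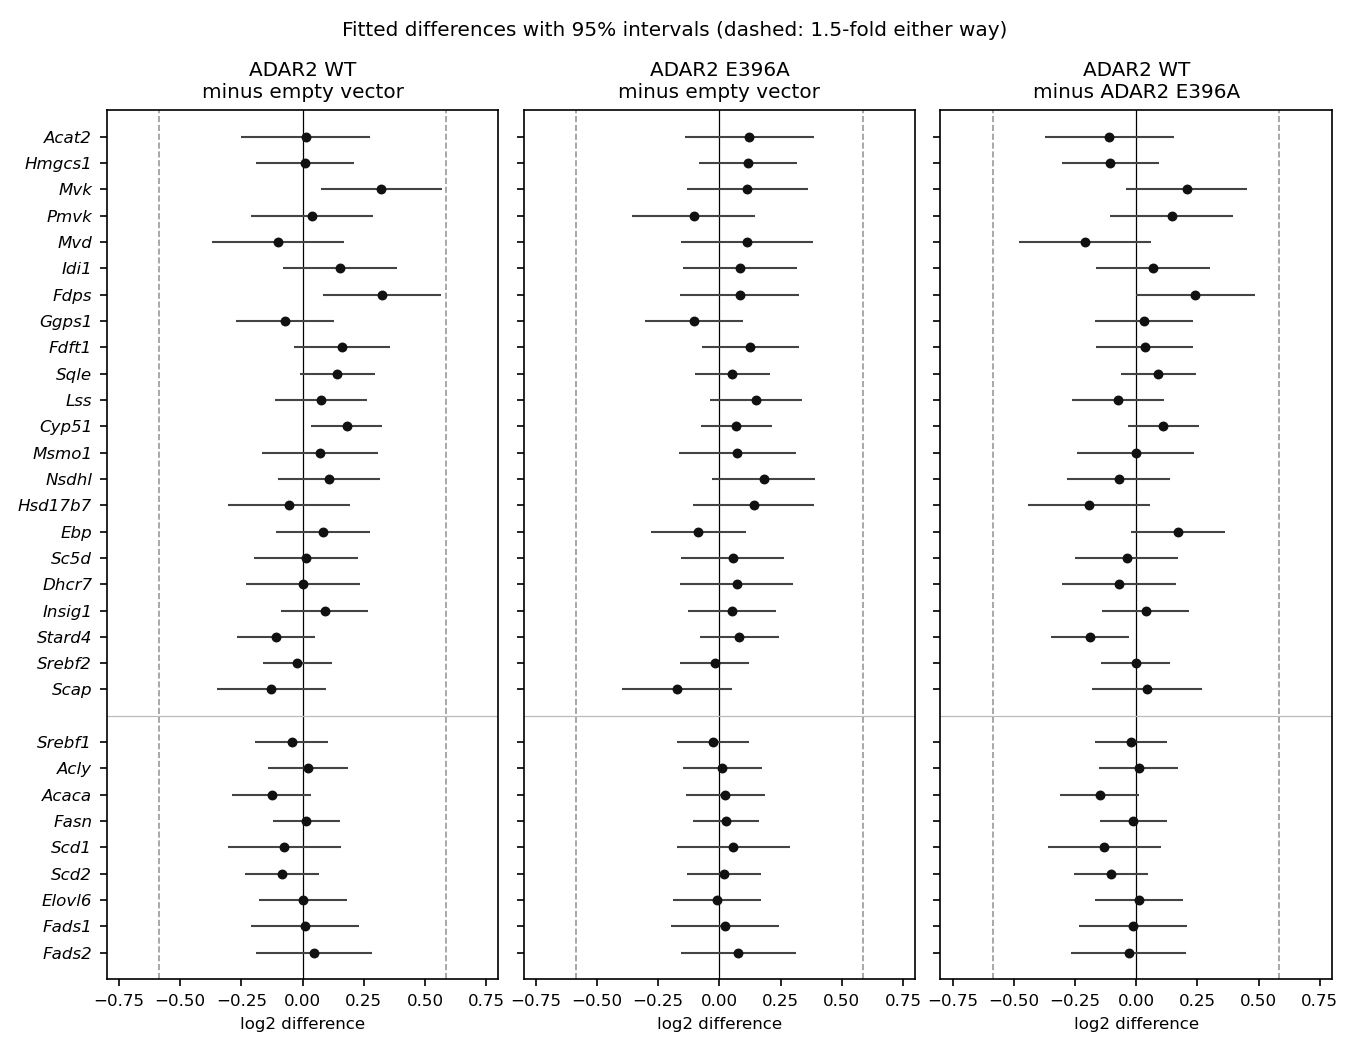
Fitted log2 difference (x axis) of each gene (y axis) with its 95% interval in the 3 comparisons; dashed lines mark 1.5-fold. All 31 intervals lie between the dashed lines in each panel, and with ADAR2 WT those of Mvk, Fdps and Cyp51 lie above 0.

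The second comparison set the enzymatically dead ADAR2 E396A against the same empty-vector libraries. Again 0 of 22 sterol and 0 of 9 fatty acid genes passed limma's test, where 0.0134% of all genes did, and 0 of 31 had an unadjusted p under 0.05, where 3.89% of all genes did. The edgeR and DESeq2 tests called 0. In the authors' deposited table each member had an adjusted p of 1.00. All 31 intervals lay inside 1.5-fold, as did those of 62.6% of all genes and 98.1% of the 7475, and 29 did without the donor term. The sterol median was 0.08 and the fatty acid median 0.02, against -0.01 for all tested genes.

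Nsdhl (ENSMUSG00000031349.4, chromosome X, 72918557 to 72958514) had the largest sterol difference with ADAR2 E396A. It was at 509 and 530 normalized counts with empty vector and 583 and 594 with ADAR2 E396A, without overlap, and its log2 difference was 0.18 (SE 0.09, interval -0.03 to 0.39, limma adjusted p = 0.999). Scap (ENSMUSG00000032485.14, chromosome 9, 110333288 to 110384950) was at 853 and 844 with empty vector and 740 and 766 with ADAR2 E396A, a difference of -0.17 (SE 0.10, interval -0.40 to 0.05, limma adjusted p = 0.999). Lss, the lanosterol synthase, was at 1582 and 1376 with empty vector and 1609 and 1664 with ADAR2 E396A, a difference of 0.15 (interval -0.04 to 0.34). Groups did not overlap for 4 sterol genes on the higher side, where 11.5% of all genes did so, and for Ebp and Scap on the lower side, where 11.9% did. Mvk and Fdps were among the 4, but by margins of a few counts. In the fatty acid arm no groups were separated. Fads2 was at 1089 and 1222 with empty vector and 1032 and 1436 with ADAR2 E396A, and had 0.08 (interval -0.16 to 0.31). Scd1 had 0.06 (-0.17 to 0.29). Fasn, at 7384 and 7583 with ADAR2 E396A, had 0.03 (-0.11 to 0.16). Srebf1, at 2458 and 2683 with it, had -0.03 (-0.17 to 0.12).

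The donors did not move alike with ADAR2 E396A. In donor A the sterol genes had a median log2 difference of -0.04, with 10 of 22 above 0, and in donor B of 0.16, with 18 of 22 above 0. The fatty acid genes had a median of -0.05 in donor A, with 1 of 9 above 0, and of 0.08 in donor B, with 8 of 9 above 0. Over the 7475 genes at or above the lowest member mean, 41.6% were above 0 in donor A and 49.0% in donor B. The split was not particular to the members. Among the neighbouring genes of sterol uptake, transport and efflux described below, 37.5% were above 0 in donor A and 81.2% in donor B. For further genes of fatty acid synthesis and esterification the shares were 45% and 45%, and for fatty acid oxidation 46.2% and 69.2%. With ADAR2 WT the sterol medians were 0.04 in each donor, and the fatty acid medians -0.05 and -0.00. Each of these is a difference of 1 library from 1 library and has no error of its own. With ADAR2 E396A the largest in donor B was that of Hsd17b7, a keto-reductase of cholesterol synthesis. It was at 1412 normalized counts with empty vector and 1818 with ADAR2 E396A, against 1168 and 1101 in donor A. Mvd, the mevalonate diphosphate decarboxylase, was at 626 and 802 in donor B and 785 and 716 in donor A. Hmgcs1 was at 4425 and 5441 in donor B and 4531 and 4325 in donor A. Scd1 was at 5698 and 6969 in donor B and 6060 and 5359 in donor A.

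**Figure D3:**
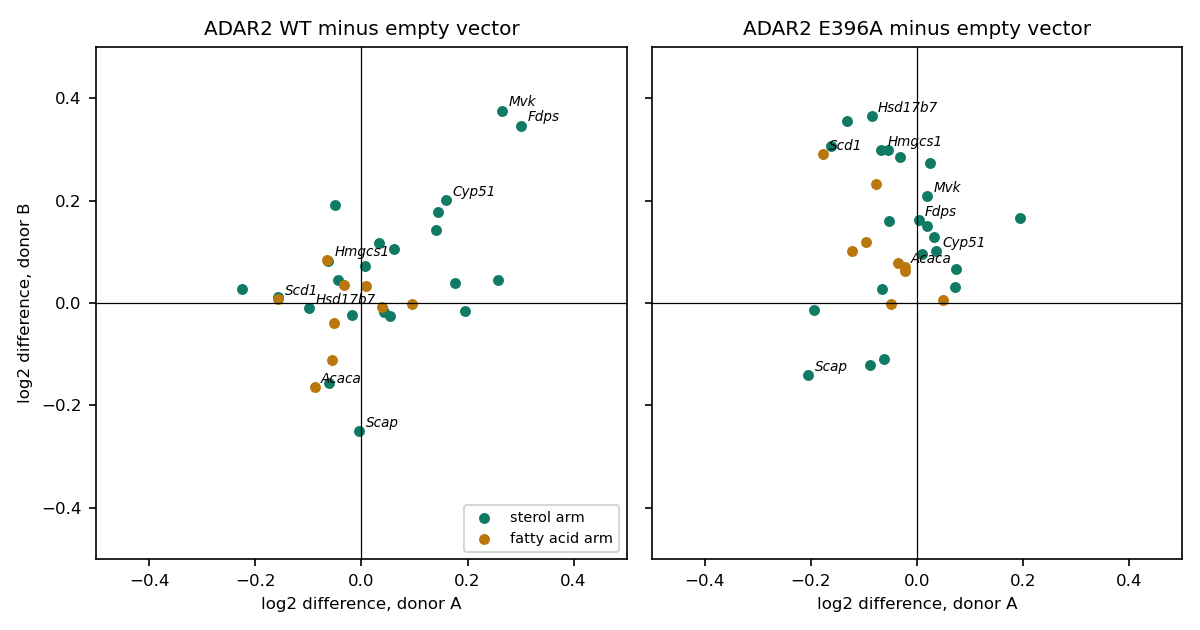
Log2 difference of each gene from empty vector in donor A (x axis) and donor B (y axis), for ADAR2 WT (left) and ADAR2 E396A (right), with the sterol arm in green and the fatty acid arm in orange. With ADAR2 E396A 26 of 31 genes lie above 0 on the donor B axis and 11 of 31 above 0 on the donor A axis.

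Seen by library, donor B's ADAR2 E396A library held the highest value of 18 of the 31 genes, 13 of 22 in the sterol and 5 of 9 in the fatty acid arm. It held the highest value of 14.9% of the 7475 genes at or above the lowest member mean. With TMM scaling the counts were 19 of 31 and 16%. Its sterol genes lay at a median of 0.11 on the log2 scale above each gene's mean of 6 libraries. Those of donor A's ADAR2 E396A library lay at -0.10, and the other 4 libraries between -0.04 and 0.03. The same library of donor B also had the highest Il17a, at 18145 normalized counts against 9279 with empty vector of that donor, and Il17f, at 31376 against 14443. The part of these cytokine levels in the members' values was not tested.

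**Figure D4:**
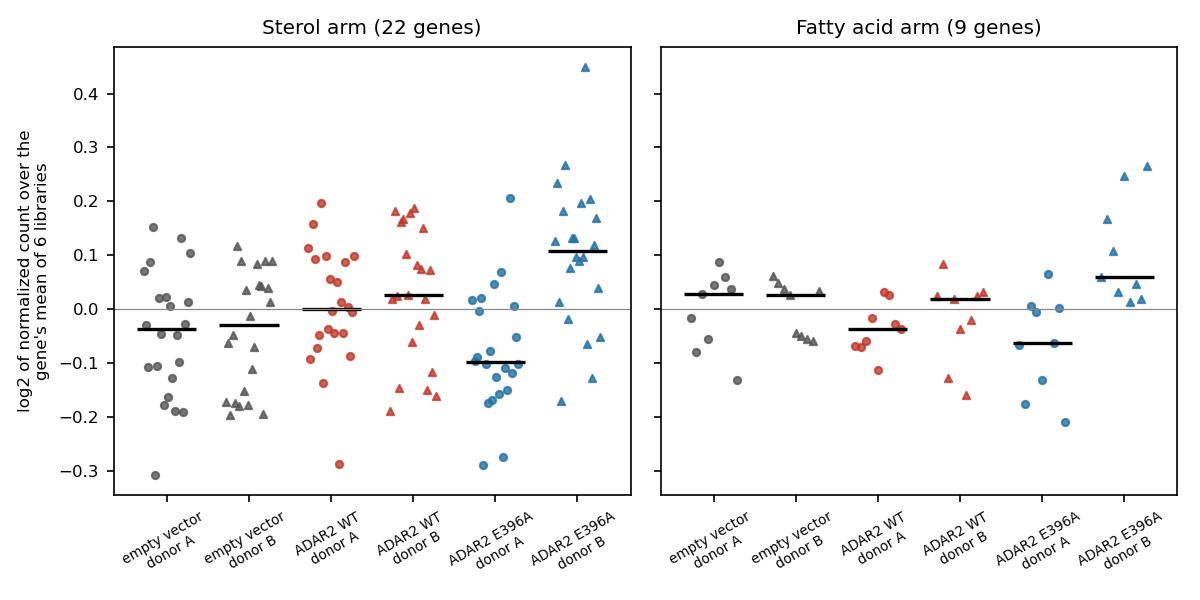
Log2 of the normalized count over the gene's mean of 6 libraries (y axis) for each gene of the sterol arm (left) and fatty acid arm (right), by library, with black bars at the medians. The sterol median is 0.11 in donor B's ADAR2 E396A library and -0.10 in donor A's.

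Several genes were set apart by donor. Hsd17b7 was at 1091 to 1168 normalized counts in the 3 libraries of donor A and at 1402 to 1818 in those of donor B. Idi1, the isopentenyl diphosphate isomerase, was at 588 to 704 and at 790 to 877, and Sqle at 2051 to 2260 and at 2377 to 2626. Dhcr7 went the other way, at 404 to 438 in donor A and 332 to 348 in donor B. In all, 10 of 31 genes were higher in every library of donor B and 2 of 31, Dhcr7 and Scd2, in every library of donor A. Among the 7475 genes at or above the lowest member mean the shares were 13.6% and 12.5%. With 1 mouse and 1 replicate set for each donor, differences of mouse, culture or library handling cannot be told apart. No test of these values was made.

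The third comparison set the active enzyme directly against the dead form, which differ in the catalytic residue. Adarb1 was higher in the ADAR2 WT libraries, at 18422 and 18999 normalized counts, than in those of ADAR2 E396A, at 15644 and 14920. Catalytic activity and transcript level of the construct cannot be told apart in this contrast. Of 31 members 0 passed limma's test, where 0.0669% of all genes did. Stard4 was the 1 gene with an unadjusted p under 0.05, where 12.4% of all genes had one. Stard4 (ENSMUSG00000024378.9) was at 3049 and 2989 normalized counts in the ADAR2 WT libraries and 3252 and 3643 in those of ADAR2 E396A, which did not overlap, and its log2 difference was -0.19 (SE 0.07, limma adjusted p = 0.33). Fdps had the largest sterol difference, 0.24 (SE 0.11, interval -0.00 to 0.48, limma adjusted p = 0.404), followed by Mvd with -0.21 (interval -0.48 to 0.06), and Mvk with 0.21 (-0.04 to 0.45). In the ADAR2 E396A libraries Fdps was at 333 and 353 normalized counts and Mvk at 327 and 351, each below both ADAR2 WT libraries. Mvd was at 672 and 638 in the ADAR2 WT libraries, each below both of ADAR2 E396A. Acaca had -0.15 (SE 0.07, interval -0.31 to 0.01, limma adjusted p = 0.437), with 2240 and 2137 against 2344 and 2515 normalized counts. Scd1 had -0.13 (interval -0.36 to 0.10) and Scd2, at 39450 and 38037 in the ADAR2 E396A libraries, -0.10 (-0.25 to 0.05). The sterol median was 0.02 and the fatty acid median -0.02. The sterol median was -0.05 without donor A's ADAR2 E396A library, -0.04 without donor A's ADAR2 WT library and 0.08 without donor B's ADAR2 E396A library. By edgeR and DESeq2 0 members passed. All 31 intervals again lay inside 1.5-fold, as did those of 59.2% of all genes and 94.1% of the 7475. The number was 30 without the donor term and 29 by limma without a trend. It fell further in some fits with 1 library left out. When donor A's ADAR2 E396A library was left out, donor B's stood alone in its group and was assumed to vary like the others. The log2 differences of Hsd17b7 and Scd1 were then -0.40 and -0.32. Both passed in that fit, but so did a far larger share of all genes than with all 6 libraries. Their passing is therefore not read as a result about these genes.

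Groups in the direct contrast did not overlap for 4 sterol genes higher with ADAR2 WT (Mvk, Fdps, Pmvk and Ebp), where 19.4% of all genes were. They did not overlap for 3 sterol genes lower with it (Mvd, Nsdhl and Stard4) and for Acaca, where 17.3% were. Pmvk, the phosphomevalonate kinase, and Ebp, the sterol isomerase, had log2 differences of 0.14 and 0.17. Both comparisons with empty vector and this contrast draw on the same 6 libraries, so the values of a gene in them are not independent.

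Neighbouring genes of lipid metabolism were counted from lists of their own. None passed limma's test in any comparison: 0 of 16 tested genes of sterol uptake, transport and efflux, 0 of 20 further genes of fatty acid synthesis and esterification, and 0 of 13 of fatty acid oxidation. With ADAR2 WT, 2, 2 and 1 of them had an unadjusted p under 0.05, where 14.1% of all genes did. With ADAR2 E396A none did, where 3.89% of all genes did. In the direct contrast 2, 5 and 1 did, where 12.4% of all genes did. Abcg1, a sterol efflux transporter, was at 688 and 430 normalized counts with empty vector, 450 and 307 in the ADAR2 WT libraries and 541 and 505 in those of ADAR2 E396A. It had a log2 difference of -0.55 with ADAR2 WT (SE 0.14, interval -0.87 to -0.23, limma adjusted p = 0.141). Its difference was -0.61 in donor A and -0.49 in donor B, although the groups overlapped. With only the 4 libraries of that comparison Abcg1 passed (limma adjusted p = 7.35e-05). In that setting 1243 of 14430 tested genes passed, against 122 of 14958 in the main fit. Mylip, a ubiquitin ligase that marks lipoprotein receptors for degradation, had -0.39 (interval -1.01 to 0.22), at 23.1 to 53.2 normalized counts. In the direct contrast Mylip had -0.54 (interval -1.15 to 0.07) and Abcg1 -0.49 (interval -0.81 to -0.17, limma adjusted p = 0.228). Abca1, a further efflux transporter, was at 922 and 954 with empty vector, 814 and 722 in the ADAR2 WT libraries and 957 and 1126 in those of ADAR2 E396A. It had -0.29 with ADAR2 WT (interval -0.53 to -0.05, limma adjusted p = 0.274), 0.15 with ADAR2 E396A and -0.44 in the direct contrast (limma adjusted p = 0.174). Abcg1, Mylip and Abca1 were named for the size of their differences or after their values were seen, and no cause of these differences was tested.

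Among the triglyceride enzymes, Dgat1, a diacylglycerol acyltransferase, was at 4751 and 4257 normalized counts with empty vector, 3264 and 3563 in the ADAR2 WT libraries and 4257 and 6082 in those of ADAR2 E396A. Its log2 difference was -0.40 with ADAR2 WT (interval -0.70 to -0.10, limma adjusted p = 0.235) and -0.58 in the direct contrast (interval -0.88 to -0.28, limma adjusted p = 0.161). The ADAR2 WT libraries were the lowest of the 6. With only the 4 libraries of each comparison Dgat1 passed in both (limma adjusted p = 5.17e-06 and 0.0274). In these settings 1243 of 14430 and 237 of 14571 tested genes passed, against 122 and 10 of 14958 in the main fit. Acsl4, an acyl-CoA synthetase of polyunsaturated fatty acids, had 0.28 with ADAR2 WT (interval 0.11 to 0.45, limma adjusted p = 0.15), though its groups overlapped. Me1, the malic enzyme that supplies NADPH, had 0.74 with ADAR2 WT, -0.36 with ADAR2 E396A and 1.09 in the direct contrast, at only 15 to 44 normalized counts. In fatty acid oxidation Acadl, an acyl-CoA dehydrogenase, had -0.22 (interval -0.46 to 0.02) and Acaa2, a thiolase, -0.31 (interval -0.56 to -0.06) with ADAR2 WT. In the direct contrast Acadl had -0.32 (interval -0.55 to -0.08) and Hadh, a dehydrogenase of the same pathway, -0.17 (interval -0.34 to 0.01). With only the 4 libraries of a comparison, limma also passed Abca1 (adjusted p = 0.0344), Acsl4 (0.00168), Acadl (0.0324) and Acaa2 (0.0289) with ADAR2 WT, and Acadl (0.0311) in the direct contrast.

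With ADAR2 E396A the largest differences of each neighbouring list had intervals that held 0, among them Me1 (-1.16 to 0.45) and Abca1 (-0.09 to 0.385). Dgat2, an acyltransferase, had -0.46 (interval -1.18 to 0.26), and Tm7sf2, a sterol reductase, 0.29 (interval -0.08 to 0.66). Acaa2 had -0.16 (interval -0.40 to 0.09) and Etfb, an electron transfer flavoprotein subunit, 0.13 (interval -0.39 to 0.65).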

How the data were processed

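RNA-seq of 6 libraries (ribosome-depleted total RNA) was analysed from 2 deposited tables, each of empty vector against 1 construct. The submitters' processing notes list the build mm10, the aligner STAR (2.6.1a), the counter featureCounts and, for testing, DESeq2 (1.18.1). The deposited per-library signal is a count divided by a size factor by the authors, and the deposited log2 fold change, Wald score, p-value and adjusted p-value come from the authors' comparison. Whole reads were recovered for 100% of values within 0.001. All 55450 gene IDs were matched to GENCODE vM21 names, and 0 per-library columns went unused.

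The column names show no donor. Donors were assigned by refitting DESeq2 with a donor term: the Wald scores differed from the deposited ones by at most 1.984e-06 with ADAR2 WT and 5.718e-05 with ADAR2 E396A, against 6.672 and 2.033 without the term and 13.81 and 6.084 with donors crossed. Libraries of 1 donor deviated together from their group means (correlations of 0.363, 0.3 and 0.381 across genes), and the series' design pairs them by donor.

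Recovered reads were scaled by median-of-ratios factors over the 6 libraries and filtered with filterByExpr, leaving 14958 genes. Values of log2(normalized count + 1) were fitted in limma 3.58.1 (R 4.3.3, trended variance) on group and donor over all 6 libraries, with 2 residual degrees of freedom before moderation, and p-values were adjusted over all genes by Benjamini-Hochberg. Alternatives used edgeR 4.0.16, DESeq2 1.42.0, other scaling and filters, no donor term, and each library left out. The code was tested on simulated data. Per-library values were given for the 3 members with the largest difference in each arm and comparison and for Srebf1 and Srebf2, and for neighbouring lists the 2 largest were named; other genes shown with values, such as Stard4, Hmgcs1, Fdft1 and Hsd17b7, Acsl4, and Abca1 outside the ADAR2 E396A comparison, were chosen after their values were seen. The members and lists were chosen with earlier results of these data known. One further marker list is not reported here.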

Additional observations from a re-analysis of the deposited data

How the results depend on the processing

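Over 17 alternatives 0 members passed with either construct against empty vector. In the direct contrast only Hsd17b7 and Scd1 passed, both without donor A's ADAR2 E396A library, which left 1 library in that group. In that fit a far larger share of all genes passed than with all 6 libraries. The passing of Hsd17b7 and Scd1 is therefore not read as a result about them. The number of all genes passing depended on the setting far more. With ADAR2 WT against empty vector (122 genes) it was 220 with no filter, 58 at a mean of at least 50, 0 by limma without a trend (1556 at an unadjusted p under 0.05), 214 by DESeq2, 127 by edgeR, 1243 with the 4 libraries, 1237 with the authors' scaling and 1 to 1217 with 1 library left out. With ADAR2 E396A (2 genes) it was 5 with no filter, 0 without a trend (757 unadjusted), 7 by DESeq2, 2 by edgeR, 1 with the 4 libraries, 1 with the authors' scaling and 1 to 127 with 1 library left out. In the direct contrast (10 genes) it was 39 with TMM, 102 with no filter, 3 at a mean of at least 50, 0 without a trend (1359 unadjusted), 109 by DESeq2, 10 by edgeR, 237 with the 4 libraries and 0 to 844 with 1 library left out. The authors' scaling gives no direct contrast, since the tables were scaled apart.

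Without the donor as a replicate block, 2, 1 and 0 genes passed in these comparisons (732 unadjusted in the last) and 0 members; 27, 29 and 30 members had intervals inside 1.5-fold.

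With 1 library left out, the median log2 difference with ADAR2 WT ran from -0.0114 (without empty vector of donor B) to 0.0838 (without that of donor A) in the sterol arm and from -0.0587 to 0.0737 (without the same libraries) in the fatty acid arm. In the direct contrast the sterol median ran from -0.0504 (without ADAR2 E396A of donor A) to 0.0805 (without that of donor B), and the fatty acid median ran from -0.0905 to 0.0032 (without the same libraries). With ADAR2 E396A the sterol median was -0.03 without that group's donor B library and 0.17 without its donor A library, and the fatty acid median -0.04 and 0.09. The members' SE on the log2 scale had a median of 0.09 and a maximum of 0.12, which limits the size of difference these 2 libraries a group can resolve.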
